A study of Mus musculus with 6 samples.

Results

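The 10 genes of the myostatin, activin and follistatin system examined here were measured in muscle stem cells (MuSCs) of mice treated with resolvin D1 (RvD1), a lipid mediator that promotes the resolution of inflammation, or with vehicle. The members were chosen by gene symbol, and all 10 were found among the 49671 genes in the files. They are the ligand genes Mstn, Gdf11, Inhba and Inhbb, the receptor genes Acvr2a, Acvr2b and Acvr1b, and the genes of the secreted binding proteins, Fst, Fstl3 and Fstl1. Each library came from 1 female C57BL/6 mouse of 4 to 6 months, with 3 mice given RvD1 and 3 given vehicle. In every mouse both tibialis anterior (TA) muscles were injured with 1.2% BaCl2, a salt that kills myofibers, and the 2 muscles were pooled at day 3. RvD1 was given IP at 100 ng per day, and vehicle was 0.1% ethanol. The sort kept cells with β1-integrin and CXCR4 on their surface and without CD45, Ter119, CD11b or Sca-1, and the sample labels add CD31 to the excluded markers. Uninjured MuSCs were not analysed here.

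Myostatin, made mainly by myofibers, limits muscle mass, and GDF11 is its closest relative. Activin A and activin B are dimers of the inhibin β subunits that Inhba and Inhbb encode. All of these ligands bind the type II receptors ACVR2A and ACVR2B, which then activate a type I receptor such as ALK4 (the product of Acvr1b) or ALK5 (the product of Tgfbr1), and the signal passes to the nucleus through SMAD2, SMAD3 and SMAD4. Follistatin (Fst) and FSTL3 trap activins and myostatin outside the cell. FSTL1 carries a follistatin-like domain but is better known as a secreted glycoprotein of mesenchymal cells than as an activin trap. Excess follistatin enlarges muscle, and loss of myostatin does the same.

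The ligands and receptors come in related pairs, so coding sequences were compared within pairs. The following stretches of 150 coding bases, read from GENCODE M21 on GRCm38 (mm10) and printed 5′ to 3′ on the coding strand, are those around the longest run shared by the activin subunit pair and by the type II receptor pair, which is in capitals. They are shown because reads of 76 bases were counted, and a read can be placed in 1 gene of a pair only if the pair differs within it.
Inhba: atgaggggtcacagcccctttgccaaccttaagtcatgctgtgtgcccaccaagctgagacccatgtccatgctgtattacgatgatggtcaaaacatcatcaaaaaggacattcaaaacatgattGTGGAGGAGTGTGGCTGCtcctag
Inhbb: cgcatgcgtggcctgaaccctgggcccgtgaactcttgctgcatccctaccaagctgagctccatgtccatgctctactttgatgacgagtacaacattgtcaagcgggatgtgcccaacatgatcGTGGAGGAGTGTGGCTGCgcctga
Acvr2a: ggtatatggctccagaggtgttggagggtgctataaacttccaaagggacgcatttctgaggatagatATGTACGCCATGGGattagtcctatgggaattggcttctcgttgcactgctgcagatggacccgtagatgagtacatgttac
Acvr2b: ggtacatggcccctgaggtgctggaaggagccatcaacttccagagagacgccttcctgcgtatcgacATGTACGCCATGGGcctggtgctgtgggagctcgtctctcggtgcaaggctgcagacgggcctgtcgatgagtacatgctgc

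The longest shared run was 18 bases between Inhba and Inhbb and 14 bases between Acvr2a and Acvr2b. The stretches of Inhba and Inhbb end with the stop codon at coding bases 1275 and 1236, and those of Acvr2a and Acvr2b begin at bases 1091 and 1160. Of the 45 pairs of members, 0 shared a 76-base word in any annotated transcript, so no read without mismatches matches 2 members.

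Of the members, 6 shared no 76-base word with any other annotated gene, and 4 did. Fstl3 (chromosome 10, 79777272 to 79782630, plus strand) overlaps Prss57, a serine protease gene on the opposite strand, and 45.7% of its 76-base words also lie in Prss57 transcripts. The methods of the study call the data single-stranded but do not give a strand setting for counting, and the cDNA and library kits do not mark strand, so whether strand could separate reads from that stretch is uncertain. Prss57 was assigned 0 to 3.95 expected counts per library, against 158 to 404 for Fstl3. For Acvr2a (chromosome 2, 48814109 to 48903269, plus strand) the shared part was 6.53%, with Orc4 on the opposite strand, and for Fstl1 and Fst it was 1.80% and 0.839%. Orc4, a subunit of the origin recognition complex, was assigned 1848 to 3718 expected counts per library.

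Libraries held between 16148026 and 28149176 expected counts, and 3 counts, taken as the floor, equaled 0.107 to 0.186 CPM (counts scaled to library size) per library. This floor covers counting error only. MuSC and myoblast markers were present in every library, with Pax7 at 4.03 to 8.50 TPM and Myf5 at 101 to 220 TPM. TPM is a level per transcript length, scaled to the total of such levels in the library. Of markers of the other cell types, the endothelial genes Pecam1 and Cdh5 reached at most 3.61 and 1.02 TPM, the macrophage genes Ptprc and Adgre1 at most 1.13 and 1.48 TPM, and the neutrophil genes S100a8 and S100a9 at most 1.80 and 0 TPM. Summed over their lists, endothelial markers were at 4.90 to 8.54 TPM with RvD1 and 3.77 to 13.1 TPM with vehicle, and macrophage markers at 29.4 to 53.1 and 43.8 to 80.3 TPM. The fibroblast collagen gene Col1a1 was at 92.6 to 347 TPM and was highest in RvD1 replicate 1. Across all genes tested, that library held the highest CPM for 30.6% of genes and the lowest for 29.5%, the largest shares of any library. In bulk RNA, fewer cells of a type and less RNA per cell cannot be told apart.

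The binding protein genes and Acvr2a were expressed above all ligand genes in every library, whereas Acvr2b and Acvr1b were at levels like those of the ligands. Mean levels over the 6 libraries were 71.8 ± 27.6 TPM (SD) for Fstl1, 31.6 ± 4.09 TPM for Acvr2a, 17.9 ± 3.86 TPM for Fst and 11.9 ± 3.29 TPM for Fstl3. They were 4.05 ± 1.18 TPM for Acvr2b, 3.79 ± 1.69 TPM for Inhba, 1.75 ± 0.463 TPM for Gdf11 and 1.23 ± 0.785 TPM for Inhbb. The least abundant members were Mstn, at 0.650 ± 0.692 TPM, and Acvr1b, at 0.588 ± 0.201 TPM. Each of the first 4 genes in this order exceeded the next in 6 of 6 libraries. Acvr2b and Inhba stood in opposite order in the 2 groups. In the 3 vehicle libraries Acvr2b, at 3.81 to 6.35 TPM, lay above Inhba, at 2.20 to 2.77 TPM, and in the 3 RvD1 libraries Inhba, at 3.78 to 6.19 TPM, lay above Acvr2b, at 3.17 to 3.52 TPM. Mstn and Acvr1b did not differ beyond their spread, since either was the higher in 3 libraries. Gdf11 exceeded Inhbb in 5 of 6 libraries, and their ranges overlapped.

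**Figure D1:**
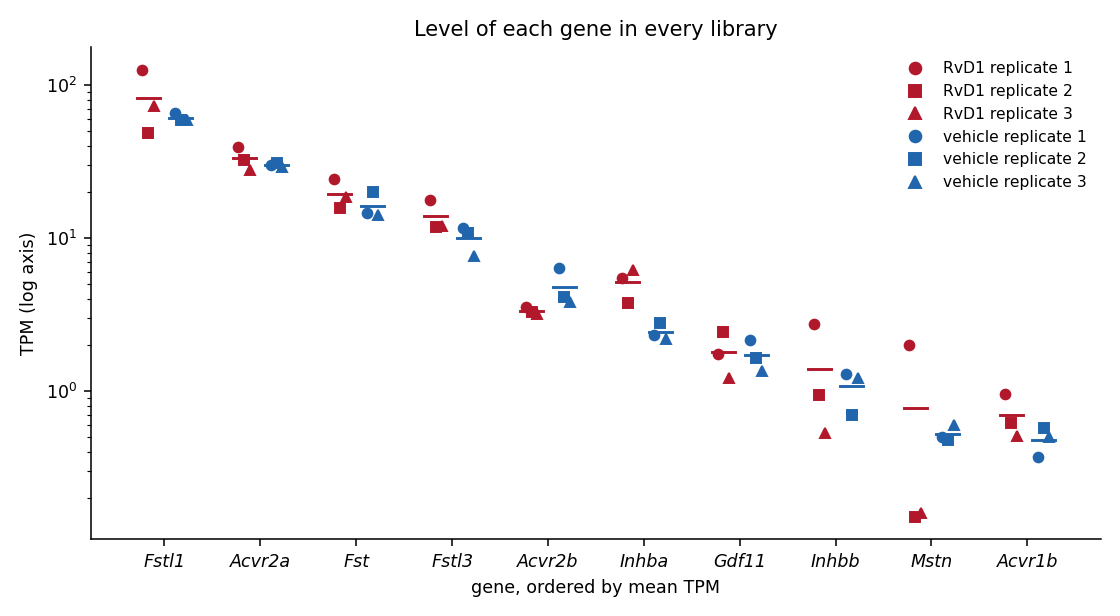
TPM on a log axis for the 10 genes, ordered by their mean over the 6 libraries. Each symbol is 1 mouse (circle, square and triangle for replicates 1, 2 and 3), red for RvD1 and blue for vehicle, and short lines are group means. Levels run from 125.68 TPM for Fstl1 down to 0.15 TPM for Mstn, and the Inhba symbols of the 2 groups are apart.

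Summed over genes, the 4 ligands reached 11.9, 7.28 and 8.09 TPM with RvD1 (replicates 1, 2 and 3, an order kept throughout) and 6.27, 5.60 and 5.36 TPM with vehicle. Inhba made up 45.8% to 76.5% of that ligand sum with RvD1 and 37.0% to 49.5% with vehicle. These shares depend on the transcript length used, 1569 to 1832 bases for Inhba, 4002 to 4021 for Gdf11 and 4170 to 4226 for Inhbb. GENCODE M21 lists 2 coding Inhba transcripts, of 1529 and 6390 bases, and which of them was present was not tested. In mean CPM, not per length, Inhba with vehicle (2.74) was below Gdf11 (4.35) and Inhbb (2.85). With RvD1, Inhba (4.97) was above Gdf11 (4.32) and Inhbb (3.50). Fst and Fstl3 together reached 42.0, 27.5 and 30.5 TPM with RvD1 and 26.2, 30.9 and 21.7 TPM with vehicle. In each library the TPM sum for these activin traps was thus above the ligand sum. The trap sum overlapped between treatments in TPM, whereas the ligand sum did not. In CPM, not per length, the ligand sum did overlap, since RvD1 replicate 3 was below vehicle replicate 1. Of the ligand genes taken singly, only Inhba did not overlap in TPM, while Mstn, Gdf11 and Inhbb did. The share of all genes without overlap in TPM was 11.4%.

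The treatment comparison asked whether RvD1 changed MuSC transcripts at day 3 after injury. All 10 members had enough counts to be tested together with 14494 genes by edgeR's quasi-likelihood test. The number of members with a Benjamini-Hochberg adjusted p under 0.05 was 0, and this was also 0% of all genes tested. At an unadjusted p under 0.05, 1 of the 10 members was counted (3.47% of all genes, with 1.83% higher and 1.64% lower). The fitted log2 fold change was above 0 for 8 members and below 0 for 2, against 53.5% of all genes above 0. Its median was 0.32 over the members and 0.014 over all genes. Without RvD1 replicate 1, Mstn (−1.80), Inhbb (−0.56) and Fst (−0.041) turned below 0 and Gdf11 (0.050) turned above 0. The count of members above 0 thus depended on that library. The groups did not overlap in CPM for 1 member, against 9.62% of all genes (4.80% higher and 4.83% lower with RvD1). In TPM they did not overlap for 3 members (Inhba and Fstl3 higher, Acvr2b lower), against 11.4% of all genes (8.89% higher and 2.52% lower). These counts over 10 genes are a description and no test of the group.

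**Figure D2:**
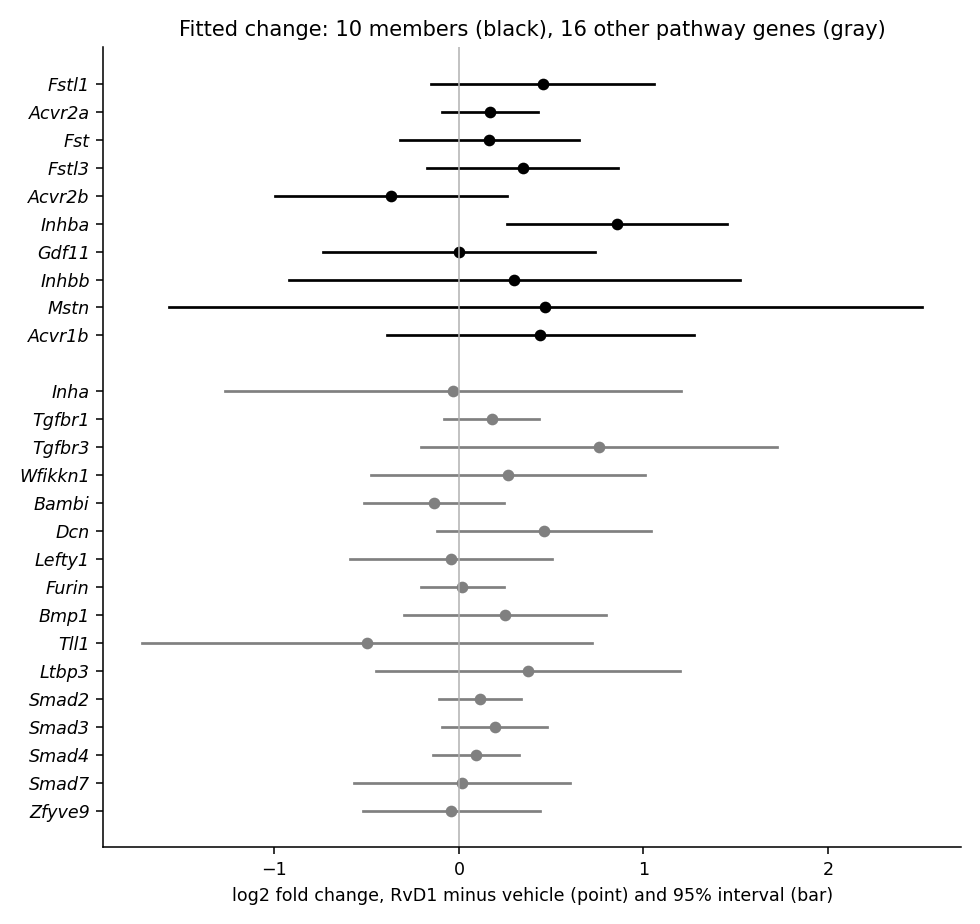
Fitted log2 fold change (point) and 95% interval (bar) from edgeR for the 10 members in black and the 16 other pathway genes that could be tested in gray, RvD1 minus vehicle. The bar for Inhba, from 0.26 to 1.45, lies above 0, and all other bars cross 0.

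Inhba (ENSMUSG00000041324, chromosome 13, 16011851 to 16031621), which encodes the βA subunit of activin A, was the member with an unadjusted p under 0.05, and its groups did not overlap in CPM or in TPM. Its expected counts were 111, 111 and 107 with RvD1 and 42, 57 and 43 with vehicle. Scaled for depth, these were 5.03, 3.96 and 5.94 CPM with RvD1 and 2.60, 3.28 and 2.33 CPM with vehicle. Every RvD1 library was above every vehicle library. The means were 4.97 ± 0.989 CPM (SD, n = 3) with RvD1 and 2.74 ± 0.485 CPM (SD, n = 3) with vehicle. The log2 fold change was 0.86 (standard error 0.26) with a 95% interval from 0.26 to 1.45, and corresponds to a fold of 1.81. The unadjusted p was 0.00994 and the adjusted p was 0.971 (Benjamini-Hochberg, after the quasi-likelihood test of edgeR), and the gene ranked 77 by p among all genes tested. The 95% interval for this gene taken alone thus lay above 0, but the gene was not called among 14494 genes.

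The direction for Inhba was the same when any library was left out, with log2 fold changes from 0.71 (without RvD1 replicate 3) to 1.00 (without vehicle replicate 2). Under the 12 other settings it ranged from 0.69 to 1.03, with unadjusted p from 0.00353 to 0.0147 (edgeR, DESeq2 or limma), and the smallest adjusted p under any setting was 0.270, from limma-voom with a surrogate variable removed. All of these settings use the same mice. The TPM values were 5.46, 3.78 and 6.19 with RvD1 and 2.32, 2.77 and 2.20 with vehicle, again without overlap. The transcript length behind them was 1569, 1685 and 1610 bases with RvD1 and 1819, 1832 and 1638 bases with vehicle.

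Mstn (ENSMUSG00000026100, chromosome 1, 53061640 to 53068079) rested on few reads, with 67, 7 and 4 expected counts with RvD1 and 12, 13 and 19 with vehicle. These were 3.03, 0.250 and 0.222 CPM with RvD1 and 0.743, 0.747 and 1.03 CPM with vehicle. RvD1 replicate 1 was the highest of all libraries and RvD1 replicates 2 and 3 were the lowest, close to the floor. The log2 fold change was 0.47 (standard error 0.90, 95% interval −1.57 to 2.51, adjusted p = 0.971 from edgeR). Without RvD1 replicate 1 it was −1.80 (standard error 0.59, unadjusted p = 0.0121, adjusted p = 0.967 from edgeR), and the remaining 2 RvD1 libraries lay below all vehicle libraries. Such separation of 2 from 3 libraries was found for 20.0% of all genes. The sign for Mstn thus turned with 1 library. The 9 myofiber markers, summed as TPM, were at 1365, 1047 and 1870 with RvD1 and at 1189, 1521 and 1224 with vehicle. Their sum was highest in RvD1 replicate 3 and lowest in RvD1 replicate 2. In CPM Mstn was lowest in RvD1 replicate 3, but in TPM it was lowest in RvD1 replicate 2 (0.15 against 0.16 TPM). The part of these markers in the Mstn values was not tested.

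Inhbb, which encodes the βB subunit of activin B, was also highest in RvD1 replicate 1. Its levels were 6.70, 2.46 and 1.33 CPM with RvD1 and 3.34, 1.90 and 3.31 CPM with vehicle, so that the RvD1 libraries were both the highest and the lowest. With all libraries the log2 fold change was 0.30 (95% interval −0.92 to 1.52) and turned to −0.56 without RvD1 replicate 1.

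Gdf11 had 4.07, 5.99 and 2.88 CPM with RvD1 and 5.33, 4.25 and 3.48 CPM with vehicle, and the groups overlapped fully. Its log2 fold change was −0.00032 with a 95% interval from −0.74 to 0.74, which leaves room for a change of 1.67-fold in either direction. Among the ligand genes, Inhba was higher with RvD1 whichever library was left out, whereas Mstn, Gdf11 and Inhbb had intervals across 0 and signs that turned with a single library. Differences in change between ligand genes were not tested.

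Among the member receptor genes, Acvr2a was the most abundant and the most tightly measured. It was at 102, 92.7 and 77.2 CPM with RvD1 and at 81.5, 79.2 and 81.7 CPM with vehicle, with the vehicle libraries inside the range of the RvD1 libraries. Its log2 fold change was 0.17 (standard error 0.11, 95% interval −0.093 to 0.43), so that this interval reaches no further than 1.34-fold. It was 0.074 without RvD1 replicate 1 and 0.27 without RvD1 replicate 3 (unadjusted p = 0.0260 from edgeR).

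Acvr1b, the gene for the type I receptor ALK4, had 16 to 54 expected counts per library. Its levels were 2.44, 1.68 and 1.33 CPM with RvD1 and 0.991, 1.61 and 1.41 CPM with vehicle, which overlapped. The fitted difference on the log2 scale was 0.44 (95% interval −0.39 to 1.27), and it was 0.17 without RvD1 replicate 1. Tgfbr1, which encodes the other type I receptor that myostatin can use, had a mean of 41.9 TPM over the 6 libraries and is given with the wider pathway.

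Acvr2b gave different pictures on the count scale and on the scale per length. It was at 2.31, 3.50 and 2.33 CPM with RvD1 and at 4.03, 3.51 and 3.04 CPM with vehicle, and the groups overlapped. The log2 fold change was −0.37 (standard error 0.28, 95% interval −0.999 to 0.26, adjusted p = 0.971 from edgeR), and with 1 library left out it lay between −0.60, when that was RvD1 replicate 2, and −0.26. In TPM the values were 3.52, 3.28 and 3.17 with RvD1 and 6.35, 4.14 and 3.81 with vehicle, and every RvD1 library was below every vehicle library. Among all genes without overlap, the split between higher and lower was more uneven in TPM than in CPM.

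The 2 scales differ in library scaling. Over all genes the median log2 fold change was 0.077 with log2(TPM + 1) and 0.014 with edgeR. The scales also differ by the effective length that RSEM gave the gene in each library, which follows its division of reads among transcripts. From counts and FPKM this length was 1115, 1715 and 1231 bases for Acvr2b with RvD1 and 1027, 1309 and 1229 bases with vehicle. The largest was 1.67 times the smallest, where the median over 11265 genes with at least 1 FPKM in every library was 1.08 and 2.31% of genes had a ratio as large. GENCODE M21 lists 6 Acvr2b transcripts, 3 of them coding and between 1729 and 3175 bases long, and 3 retained introns of 514 to 599 bases. Lengths between these classes arise where reads are divided among them, and which transcripts were present was not tested.

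**Figure D3:**
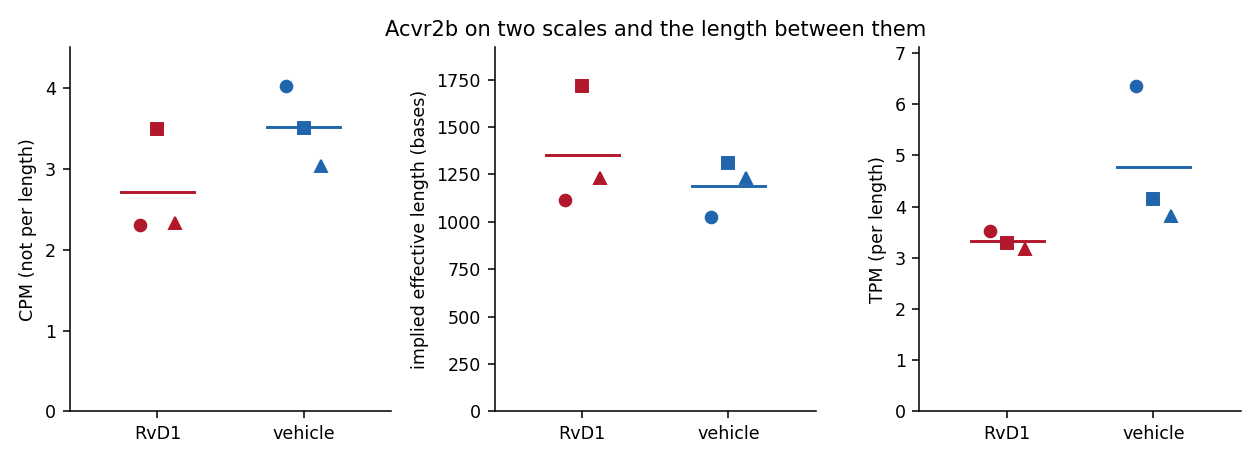
Acvr2b in each mouse as CPM, as the effective length in bases implied by counts and FPKM, and as TPM, with axes from 0. Symbols are mice (circle, square and triangle for replicates 1, 2 and 3) and lines are group means. RvD1 replicate 2 has the most counts of its group (3.50 CPM) and the longest implied length (1715 bases), and its TPM of 3.28 sits with the other RvD1 libraries.

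Among binding proteins, follistatin itself overlapped between treatments. Fst was at 22.0, 15.0 and 15.2 CPM with RvD1 and at 15.7, 18.7 and 12.2 CPM with vehicle. For Fst the log2 fold change was 0.16 (standard error 0.21, 95% interval −0.32 to 0.65), and −0.041 without RvD1 replicate 1. The interval for Fst thus ends at a 1.57-fold increase and at 0.801 of the vehicle level.

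Fstl3 was at 18.3, 11.95 and 12.1 CPM with RvD1 and at 12.8, 11.96 and 8.58 CPM with vehicle. For Fstl3 the log2 fold change was 0.35 (95% interval −0.17 to 0.86) and 0.12 without RvD1 replicate 1. In TPM, Fstl3 was at 17.8, 11.8 and 11.9 with RvD1 and at 11.6, 10.8 and 7.65 with vehicle, without overlap, although RvD1 replicate 2 (11.79 TPM) was close to vehicle replicate 1 (11.57 TPM). On the CPM scale those 2 libraries stood in the reverse order.

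Fstl1, the most abundant member, was spread more widely over the RvD1 libraries than over the vehicle libraries. It was at 229, 94.7 and 142 CPM with RvD1, against 125, 108 and 106 CPM with vehicle, so that RvD1 libraries were again the highest and the lowest. The log2 fold change was 0.45 (standard error 0.27, 95% interval −0.15 to 1.06) and 0.059 without RvD1 replicate 1. Without RvD1 replicate 2 it was 0.71 (unadjusted p = 0.00675 from edgeR). The unadjusted p was 0.00890 without a filter on low counts (edgeR) and 0.0365 with a surrogate variable removed (limma-voom), and no adjusted p passed the threshold. The 8 fibro-adipogenic markers, summed as TPM, were at 1271, 556 and 796 with RvD1 and at 734, 646 and 702 with vehicle, with the same highest and lowest library as Fstl1. Of these 8 markers, 6 had a higher mean with RvD1 and 2 a lower one, and the defining marker Pdgfra was at 1.57 to 3.55 TPM. Their part in the Fstl1 values was not tested.

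In RvD1 replicate 1, 7 of the 10 members had their highest CPM (Mstn, Inhbb, Acvr2a, Acvr1b, Fst, Fstl3 and Fstl1), and Acvr2b had its lowest there. Of all genes tested, 30.6% had their highest CPM in that library and 29.5% their lowest. Of the 9 MuSC and myoblast markers, Pax7, Myf5, Vcam1 and Sdc4 were also highest in that library, Myod1 was lowest, and Itga7, Cdh15, Des and Myog lay within the range of the other libraries. Pax7 was at 8.50 TPM in RvD1 replicate 1 and at 4.03 to 6.63 TPM in the others, and Myf5 at 220 TPM against 101 to 160 TPM. Myod1, a myogenic determination factor, was at 239 TPM there and at 325 to 470 TPM in the others. The myofiber markers Ckm and Acta1, relevant because myofibers make myostatin, were at 20.5 and 492 TPM in RvD1 replicate 1, within their ranges of 9.63 to 29.7 and 370 to 751 TPM. The 5 pericyte and smooth muscle markers, summed as TPM, were at 551 there and at 273 to 410 in the others. Acta2 alone held 512 TPM of that 551. Rgs5, Kcnj8 and Acta2 were highest in RvD1 replicate 1, whereas Myh11 and Cspg4 were highest in RvD1 replicate 3. The part of these differences in the members' values was not tested.

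**Figure D4:**
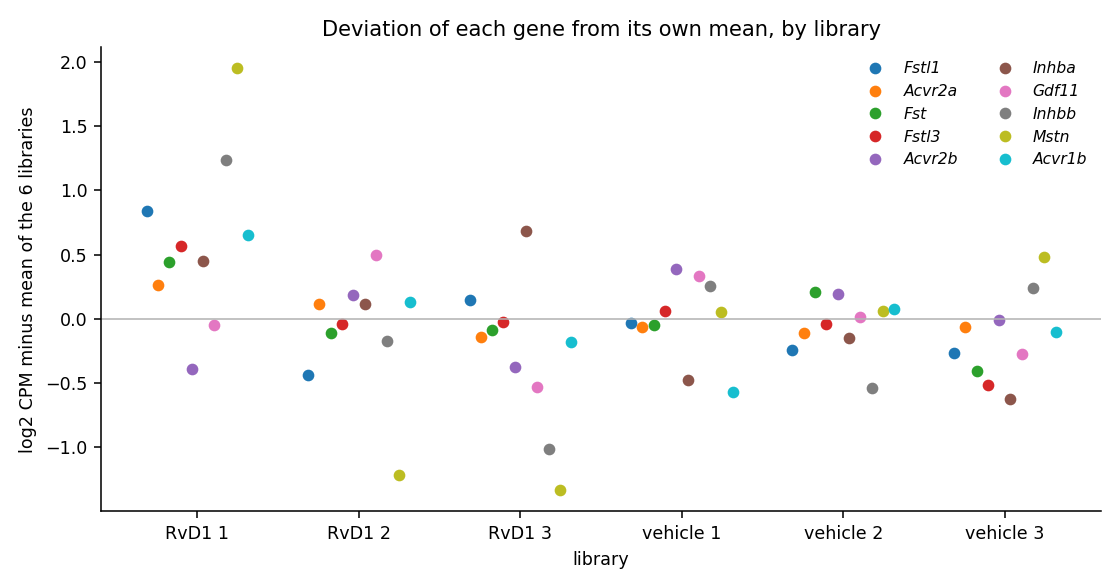
Log2 CPM of each member minus its own mean over the 6 libraries, with 1 color per gene and the libraries along the horizontal axis. RvD1 replicate 1 holds the highest value of 7 of the 10 genes, against 30.6% of all genes tested. Inhba is above its mean in all 3 RvD1 libraries and below it in all 3 vehicle libraries.

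**Figure D5:**
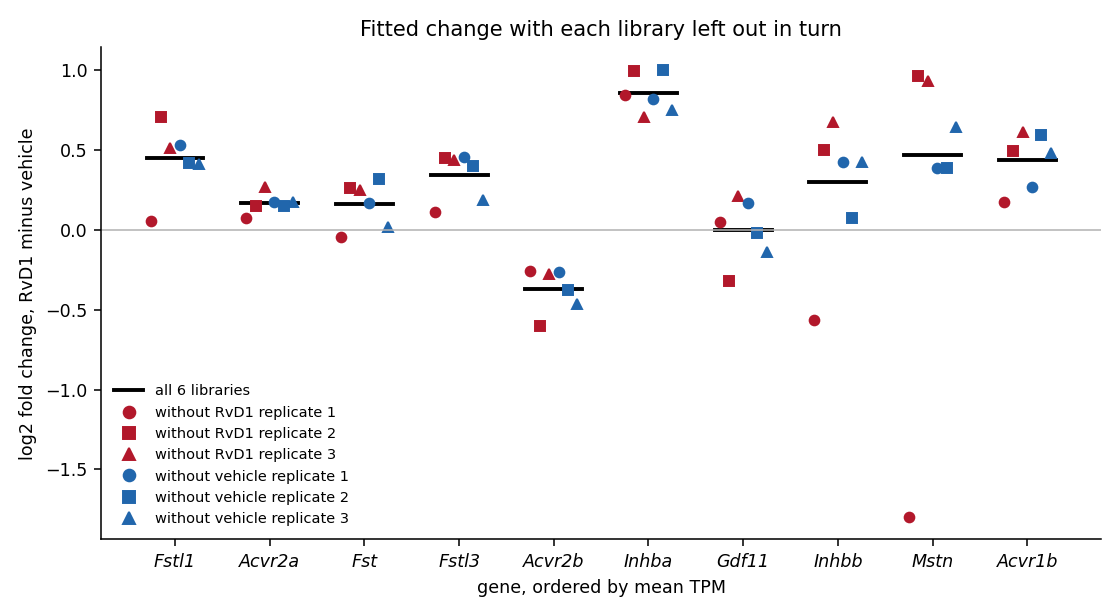
Fitted log2 fold change of each member with all 6 libraries (black line) and with 1 library left out (symbols, colored by the group and shaped by the replicate left out). Without RvD1 replicate 1, Mstn moves from 0.47 to −1.80 and Inhbb from 0.30 to −0.56, while Inhba stays between 0.71 and 1.00.

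The wider pathway was read from a list of 28 other genes, ordered by role. Of these, 16 had enough counts to be tested, 11 with a log2 fold change above 0 and 5 below 0, and 4 genes had 0 counts in every library. The number with an adjusted p under 0.05 in edgeR was 0, and the number with an unadjusted p under 0.05 was also 0 in edgeR, DESeq2 and limma-voom. The groups did not overlap in CPM for 1 of the 16, Wfikkn1, against 9.62% of all genes. Wfikkn1, which encodes a myostatin-binding protein, was at 1.30 ± 0.0692 CPM with RvD1 and 1.08 ± 0.0999 CPM with vehicle (SD, n = 3). Its log2 fold change was 0.27 (95% interval −0.48 to 1.01, unadjusted p = 0.438 from edgeR).

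Among the 6 other ligand genes only Inha, which encodes the inhibin α subunit that pairs with β subunits to form inhibins, could be tested (mean 0.722 TPM, log2 fold change −0.032). Gdf1 had a mean of 0.543 TPM. Of 5 other receptor and co-receptor genes, 2 were tested. Tgfbr1 had a log2 fold change of 0.18 (95% interval −0.082 to 0.43). Tgfbr3, which encodes betaglycan, a co-receptor for inhibin, had 0.76 (95% interval −0.21 to 1.72), with 91.5 CPM in RvD1 replicate 1 and 24.4 to 32.9 CPM in the other libraries.

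Of 6 other inhibitor genes, 4 were tested. Dcn, which encodes decorin, a matrix proteoglycan that can bind myostatin and is made by fibroblasts, had a mean of 257 TPM and a log2 fold change of 0.46 (95% interval −0.12 to 1.04). Bambi, a pseudoreceptor gene, had −0.14 (95% interval −0.52 to 0.24). Among processing genes, Furin, which encodes a protease that cleaves TGF-β family precursors, had a mean of 59.0 TPM and a log2 fold change of 0.017 (95% interval −0.21 to 0.24). Bmp1, which encodes a protease that frees myostatin from its propeptide, had 0.25 (95% interval −0.30 to 0.80).

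Among the signal transducers, Smad4, at a mean of 97.2 TPM, had a log2 fold change of 0.091 (95% interval −0.14 to 0.32), and Smad2, at 59.3 TPM, had 0.11 (95% interval −0.11 to 0.33). Smad2, Smad4, Tgfbr1 and Acvr2a each exceeded the summed ligand level in every library, and their fitted changes did not pass the test.

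The 3 members that varied most over the libraries did so by 3.28 (Mstn), 2.25 (Inhbb) and 1.31 (Inhba) on the log2 CPM scale. Genes with a like pattern were looked for among 9591 others. Mstn was most like Crot (Pearson r 0.992, Spearman rho 1) and Cst3 (0.980 and 0.943). Inhbb was most like Pfn2 (0.995 and 1) and Txlng (0.989 and 1), and Inhba was most like Ap2a2 (0.979 and 1) and Hdac10 (0.965 and 1). Crot, at 52.9 CPM in RvD1 replicate 1 and 36.4 to 45.0 CPM elsewhere, covered a much narrower range than Mstn. With only 6 libraries, 26 genes had an r above 0.95 with Mstn, 25 with Inhbb and 9 with Inhba, and these likenesses are a description of the same libraries.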

How the data were processed

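RNA was measured by RNA-Seq (SMARTseq v4 cDNA, Nextera XT libraries) in sorted MuSCs. The authors aligned 76-base single-ended reads to mm10 with STAR 2.5.0a and quantified genes with RSEM, whose version and annotation are not given in the sources used here. The deposited expected counts are RSEM estimates without scaling for depth. The deposited FPKM values are counts divided by effective transcript length and library size. The deposited TPM values are also per length, but are scaled to the total of such per-length levels in the library. One stray header line was removed from each file.

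After rounding to whole numbers, all genes were tested in R 4.3.3 with edgeR 4.0.16 (TMM, filterByExpr by group, quasi-likelihood test without robust estimation), and p-values were adjusted by Benjamini-Hochberg over all genes tested, with a threshold of 0.05. Standard errors came from the fold change and F, and intervals from the t distribution with the fit's degrees of freedom. CPM values are TMM-scaled, and log2 CPM used a prior count of 2. Alternatives were DESeq2 1.42.0, limma 3.58.1 with and without sva 3.50.0, log2 values of TPM and FPKM, other scalings and filters, a replicate block, and each library left out. The fits were tested on simulated counts.

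Replicates are separate mice. After group means were subtracted, libraries with the same replicate number correlated at −0.00071 to 0.310 across genes, and neither the labels nor the methods state a pairing, so blocking by number was tried only among the alternatives.

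Genes named are all members, the pathway genes with an unadjusted p under 0.05 or among the 2 highest in TPM of each role, the first 2 markers of a list, and for the 3 most variable members the 2 genes of highest Pearson r. Wfikkn1, the other MuSC and myoblast markers, Acta2, Myh11, Cspg4 and genes sharing reads with a member were added after their values were seen. Members and lists were chosen with earlier results of these data known. Gene positions and 76-base words were taken from GENCODE M21. Some sequences and marker genes are not reported here.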

Additional observations from a re-analysis of the deposited data

How the results depend on the processing

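For each member 18 alternative settings were run, and 0 of the 180 member values had an adjusted p under 0.05 (smallest 0.270). The direction was kept in 164 of them and turned in 16, all for Mstn, Gdf11, Inhbb and Fst. Mstn gave −0.28 with the replicate block, −0.57 with limma-voom, −0.96 with limma-voom after 1 surrogate variable was removed and −0.28 with log2(TPM + 0.1). Gdf11 gave 0.031 with library totals only, 0.012 with limma-voom, 0.050 after removal of the surrogate variable, 0.023 with log2(TPM + 1) and 0.026 with log2(TPM + 0.1). Inhbb gave −0.12 after removal of the surrogate variable. With 1 library left out, log2 fold changes ran from −1.80 (without RvD1 replicate 1) to 0.96 for Mstn, −0.32 (without RvD1 replicate 2) to 0.21 for Gdf11, −0.56 to 0.67 for Inhbb and −0.041 to 0.32 for Fst, with the lowest of Inhbb and Fst also without RvD1 replicate 1. The cause of the other turns was not tested.

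Over all genes, edgeR gave 0 adjusted p under 0.05, with 503 below that level before adjustment. The number with an adjusted p under 0.05 was 12 without a filter on low counts and 0 to 1 with 1 library left out (1 without RvD1 replicate 3), and 0 under the other settings. The number of other pathway genes with an unadjusted p under 0.05 was 1 with the replicate block (Ltbp3), 3 without a filter (Dcn, Tgfbr3 and Gdf3) and 0 to 3 with 1 library left out (3, Dcn, Tgfbr3 and Gdf3, when RvD1 replicate 2 was left out, and 3, Tgfbr1, Tgfbr3 and Gdf3, when it was RvD1 replicate 3). The block made no call for a member, and 896 of all genes had an unadjusted p under 0.05 with it. The order of levels was the same in FPKM, and 8 of 10 ranks were kept in the RvD1 libraries alone. Depth limits the ligand genes, Acvr1b and Acvr2b, whose lowest counts per library were 4 for Mstn, 16 for Acvr1b, 24 for Inhbb, 42 for Inhba and Acvr2b and 52 for Gdf11.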
